A study of Mus musculus with 4 samples.

Results

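The 3 D-type cyclins and 7 inhibitors of cyclin-dependent kinases (CDKs) were examined in mouse aortas that lack Smad4 in smooth muscle. The members were every probe set that the platform annotation pairs with exactly 1 of the symbols Cdkn1a, Cdkn1b, Cdkn1c, Cdkn2a, Cdkn2b, Cdkn2c, Cdkn2d, Ccnd1, Ccnd2 and Ccnd3. They came to 22 probe sets of these 10 genes, out of 34945 probe sets and 18193 genes with a single symbol. Smad4-KO aortas came from mice with a knockout of Smad4 in smooth muscle cells, and WT aortas from wild-type littermates. All mice were 6 weeks old. Each genotype had 2 Affymetrix arrays, replicate 1 and replicate 2. Vessels were pooled, 3 to 5 for each array, and 400 ng of RNA was used. The labels name neither the Cre driver nor the deleted part of Smad4, and how far Smad4 was lost in each cell type of the vessel wall was not measured.

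CDK4 and CDK6 become active when a D-type cyclin binds them, and they then phosphorylate the retinoblastoma protein, which releases E2F factors and lets a cell enter S phase. The INK4 inhibitors (Cdkn2a to Cdkn2d) bind CDK4 and CDK6 and keep the D-type cyclins off. The Cip/Kip inhibitors (Cdkn1a to Cdkn1c) bind complexes of a cyclin and a CDK and block mainly those of CDK2. TGF-beta is a textbook brake on this switch: in epithelial and other cells, Smad complexes that contain Smad4 raise transcription of Cdkn2b and Cdkn1a and lower that of Myc.

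In Smad4-KO aortas the signal of Ccnd2, the cyclin D2 gene, was 2.34 times lower than in WT, and that of Ccnd1, the cyclin D1 gene, was 1.72 times higher, with neither difference past the test. Cdkn1c and Cdkn2b had signals 1.59 and 1.55 times as high in Smad4-KO as in WT, also short of the threshold. Cdkn1a, Cdkn1b, Cdkn2c and Cdkn2d had overlapping values in the genotypes, and Cdkn2a lay below the filter on low signal. In limma 0 of the 9 members tested had an adjusted p under 0.05, and 1, Ccnd2, had an unadjusted p under 0.05. Over all 13645 genes tested 6.31% passed and 19.3% had an unadjusted p under 0.05.

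Signals are linear probe set intensities. A gene is given by its brightest probe set, and a value after ± is the standard error of a log2 difference, Smad4-KO minus WT, from limma. For 5 of the 9 members tested the genotypes did not overlap, with Smad4-KO above WT for 3 and below it for 2. The same held for 47.3% of all genes tested, 25.9% above and 21.4% below. The median log2 difference was 0.22 over the 9 members and -0.0056 over all genes tested. With 2 arrays against 2, an exact permutation test cannot give a two-sided p below 0.333, and so few arrays limit how precisely any value is known. In a fit of every probe set, 0 of the 20 member probe sets tested were called and 4 had an unadjusted p under 0.05; over all 26209 tested 0.782% were called, 0.702% higher and 0.0801% lower, and 14.1% had an unadjusted p under 0.05. The genotypes did not overlap in 10 of the 20, against 42.2% of all probe sets tested, 22.0% above and 20.1% below.

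**Figure D1:**
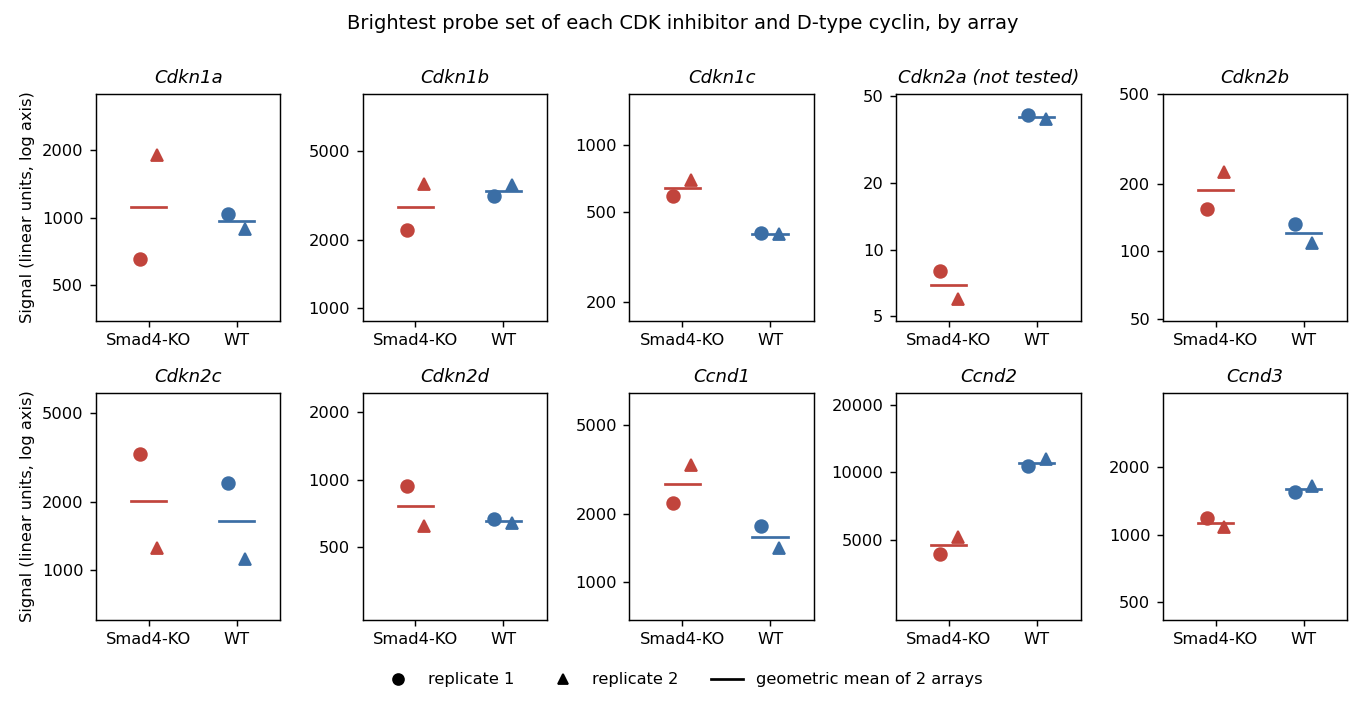
Signal of the brightest probe set of each member on every array, on log axes that differ between panels, with Smad4-KO left of WT. Circles are replicate 1, triangles replicate 2 and bars the geometric mean of 2 arrays. Ccnd2 read 4327 and 5153 in Smad4-KO, against 10622 and 11481 in WT.

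The targeted gene, Smad4, read 2676 and 3580 in Smad4-KO, against 4394 and 3819 in WT, by the brightest of its 3 probe sets. The genotypes were apart, but the difference did not pass (-0.40 ± 0.32, adjusted p = 0.626), and whether these probes lie in the deleted part is not known here. It was -0.19 without Smad4-KO replicate 1 and -0.61 without Smad4-KO replicate 2. The second Smad4 probe set read 2018 and 4166 in Smad4-KO and 4306 and 3550 in WT, and the genotypes overlapped. The dimmest read 658 and 942 in Smad4-KO and 1213 and 1778 in WT, a log2 difference of -0.90 with no overlap. The summed signal of 8 smooth muscle markers was 57803 to 67472 in Smad4-KO and 119659 to 148176 in WT, with 3 of 8 called lower and all above 64 on each array. That of 10 macrophage markers was 52544 to 65672 in Smad4-KO, against 9818 to 14354 in WT, with 6 of 10 called higher. That of 7 sympathetic neuron markers was 17907 to 26105 in Smad4-KO and 945 to 1026 in WT, with 7 of 7 called higher. Of 7 T and B cell markers 1 and 3 were under 64 on the Smad4-KO arrays and 3 and 4 on the WT arrays, with summed signals of 1314 to 2406 in Smad4-KO and 384 to 638 in WT. Of the 4 of these tested 1 was called higher, Cd3d (median of the 4 1.87). Of 8 endothelial and 8 fibroblast markers 0 were called in limma, with median differences of -0.093 and 0.094, and of 5 Schwann cell markers 1 was called higher (median 0.58). Of all genes tested 4.92% were called higher and 1.39% lower. In pooled tissue, fewer cells of a type and less RNA per cell cannot be told apart, and the part of these cell types in the values below was not tested. The 3' to 5' ratio of the Dap labelling control was 3.62 and 14.1 on the Smad4-KO arrays, replicate 1 first, and 10.02 and 2.96 on the WT arrays. Differences are also given within each of the 4 pairs of 1 Smad4-KO and 1 WT array. The ratio is alike only for Smad4-KO replicate 1 with WT replicate 2 and for Smad4-KO replicate 2 with WT replicate 1. A range over the 4 pairs therefore does not set the labelling difference aside.

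Ccnd2 had the lowest adjusted p of the members. Its product, cyclin D2, drives CDK4 and CDK6 in many cell types, among them ovarian granulosa cells and pancreatic beta cells. The brightest of its 7 probe sets read 4327 and 5153 in Smad4-KO, against 10622 and 11481 in WT. Both Smad4-KO arrays lay well below both WT arrays, and the arrays of each genotype lay within a factor of 1.19 of each other in Smad4-KO and 1.08 in WT. The log2 difference was -1.23 ± 0.30 (95% interval -1.98 to -0.47), which limma did not call at 0.05 (adjusted p = 0.0849). This difference passes at 0.10, as do those of 1403 of the 13645 genes tested. Within the 4 pairs it ran from -1.41 to -1.04. Over 15 alternative settings it stayed between -1.08 and -1.38, and its adjusted p between 0.0567 and 0.375.

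The other Ccnd2 probe sets give the same gene by other probes on the same arrays, so they are no further replicates. The second brightest read 2240 and 3001 in Smad4-KO and 5731 and 5949 in WT, a log2 difference of -1.17 ± 0.35 in a fit of every probe set (adjusted p = 0.229). The third read 1233 and 3465 in Smad4-KO and 4993 and 4152 in WT. The fourth read 1311 and 922 in Smad4-KO, against 1885 and 3016 in WT. In these 4 probe sets the genotypes did not overlap, and the differences ran from -1.12 to -1.23. The fifth read 146 and 1692 in Smad4-KO, against 1352 and 1996 in WT, so that the low value belonged to Smad4-KO replicate 1 alone. The sixth read 102 and 365 in Smad4-KO and 281 and 658 in WT, and the genotypes overlapped. The dimmest stayed between 60.6 and 76.3 in Smad4-KO and between 54.6 and 105 in WT. All 7 differences were negative, the dimmest by 0.16 and the rest by 1.12 to 1.72, and 0 of 7 were called.

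Ccnd1 encodes cyclin D1, the D-type cyclin that growth factor signals raise in many cells. Its brightest probe set read 2257 and 3321 in Smad4-KO and 1784 and 1423 in WT. Both Smad4-KO arrays were above both WT arrays, though the upper WT array came within a factor of 1.27 of the lower Smad4-KO array. The log2 difference was 0.78 ± 0.35 (95% interval -0.091 to 1.65, adjusted p = 0.315), and 0.34 to 1.22 within the pairs of arrays. Without Smad4-KO replicate 2 it was 0.50. The second probe set read 1609 and 1548 in Smad4-KO and 828 and 637 in WT, a wider gap between the genotypes (1.12 ± 0.34, adjusted p = 0.242 in the fit of every probe set). The dimmest read 156 and 348 in Smad4-KO and 113 and 80.0 in WT (1.30 ± 0.51, adjusted p = 0.366). The genotypes did not overlap in any of the 3 probe sets.

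The ratio of Ccnd1 to Ccnd2 within an array is free of the scaling of that array. It was computed after the values of both genes had been seen, so it describes these arrays and adds no independent evidence. The log2 ratio of the brightest probe sets was -0.94 and -0.63 in Smad4-KO, against -2.57 and -3.01 in WT; only the change of the ratio can be read, because probe sets differ in brightness for equal amounts of RNA. The ratio was 4.02 times as high in Smad4-KO as in WT, a change of 2.01 on the log2 scale (exact permutation test, two-sided, p = 0.333, the smallest this design can give). With the mean of all probe sets of each gene the change was 2.16.

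Ccnd3 encodes cyclin D3, which is prominent in lymphocytes and in differentiating skeletal muscle. Its brightest probe set read 1184 and 1084 in Smad4-KO, against 1555 and 1655 in WT. The genotypes were apart and the replicates close, yet the difference was small (-0.50 ± 0.29, 95% interval -1.23 to 0.23, adjusted p = 0.465). The dimmer probe sets did not show it. The second read 104 and 434 in Smad4-KO and 173 and 222 in WT, and the third read 142 and 284 in Smad4-KO and 174 and 179 in WT. In both of them the WT values lay between the 2 Smad4-KO values. With the mean of its 3 probe sets the difference of Ccnd3 was -0.067.

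**Figure D2:**
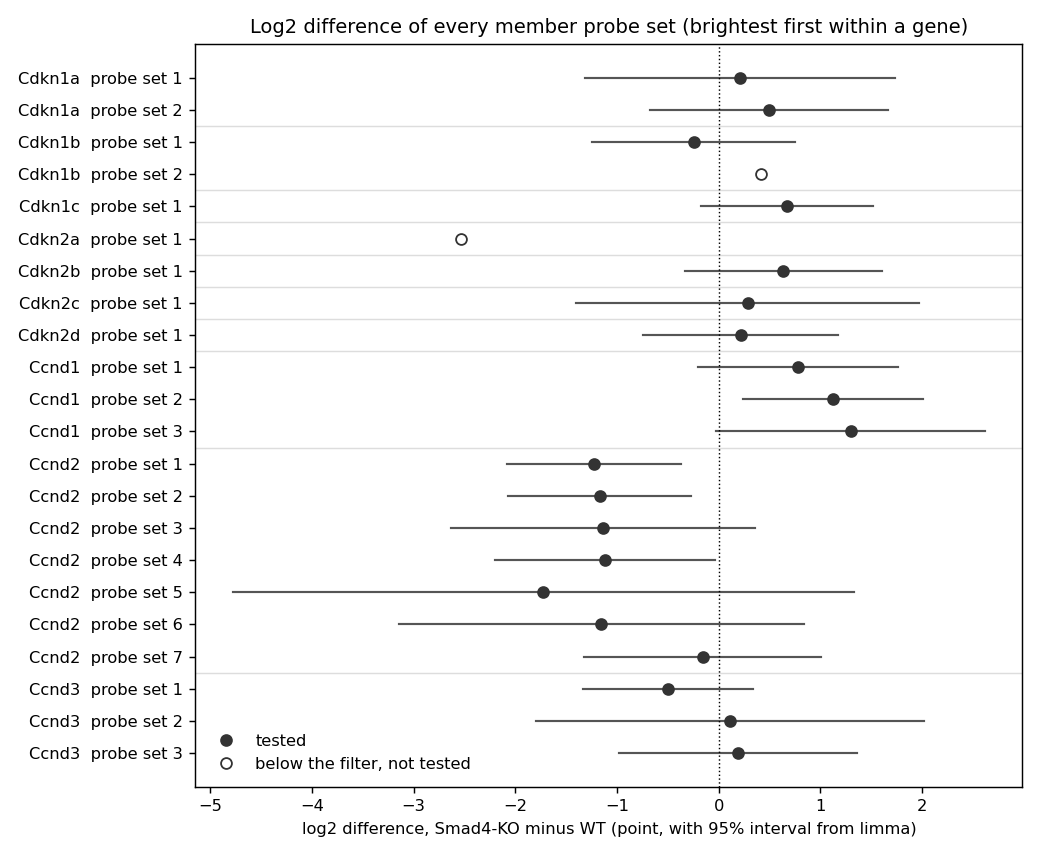
Log2 difference, Smad4-KO minus WT, of all 22 member probe sets with its 95% interval from the limma fit of every probe set; within a gene the brightest is first, and open points were below the filter and not tested. The 3 Ccnd1 points lie right of 0 and the 7 Ccnd2 points left of it.

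Among the INK4 inhibitors, Cdkn2b encodes p15, which in epithelial cells is the inhibitor most directly raised by TGF-beta. Its only probe set read 155 and 225 in Smad4-KO and 133 and 109 in WT. Both Smad4-KO values were the higher ones, and the nearest arrays of the genotypes differed by a factor of 1.17. The log2 difference was 0.63 ± 0.34 (95% interval -0.22 to 1.49, adjusted p = 0.425) and 0.22 to 1.05 within the pairs. Without Smad4-KO replicate 2 it was 0.36.

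The promoters of Cdkn2b and Cdkn1a are shown because both genes are textbook targets of Smad complexes, which bind the box CAGAC, often beside Sp1 at the GC box GGGCGG. Each window holds the 250 bases before a RefSeq start of GRCm38.p6, read on the strand of the gene. Capitals mark CAGAC or GGGCGG on either strand, so GTCTG and CCGCCC are their reverse complements, and no 2 marked motifs overlap in these windows. The Cdkn2b window is chr4:89311033-89311282 on the minus strand and the Cdkn1a window, before the downstream of its 2 starts in the table, is chr17:29093519-29093768 on the plus strand.
Cdkn2b: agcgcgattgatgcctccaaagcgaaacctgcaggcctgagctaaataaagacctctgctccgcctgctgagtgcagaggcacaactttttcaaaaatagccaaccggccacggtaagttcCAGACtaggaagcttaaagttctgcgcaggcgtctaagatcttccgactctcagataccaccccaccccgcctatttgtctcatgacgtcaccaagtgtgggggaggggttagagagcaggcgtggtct
Cdkn1a: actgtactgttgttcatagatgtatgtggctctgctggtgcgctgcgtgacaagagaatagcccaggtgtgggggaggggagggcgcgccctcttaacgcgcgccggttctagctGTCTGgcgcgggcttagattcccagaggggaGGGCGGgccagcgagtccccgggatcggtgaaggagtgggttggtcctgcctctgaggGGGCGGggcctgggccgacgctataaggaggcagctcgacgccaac
The Cdkn2b window holds 1 CAGAC box, 129 bases before the start. The Cdkn1a window holds 1 CAGAC box at 135 bases and 2 GC boxes at 104 and 46 bases. Of all 32851 windows of the table, 42.2% held CAGAC and 32.7% held GGGCGG on either strand, so a match in 1 window is common. The table had 11 windows for 7 members: 6 windows held CAGAC, 7 held GGGCGG, and 0 held the E-box CACGTG, which 6.02% of all windows held. Cdkn1c, Ccnd1 and Ccnd2 were not analysed for motifs here. A match describes the letters alone.

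Cdkn2c encodes p18, an INK4 inhibitor that differentiating cells such as fat and muscle cells accumulate. Its probe set read 3268 and 1244 in Smad4-KO and 2443 and 1120 in WT. Replicate 1 was the higher array in both genotypes, by 2.63 times in Smad4-KO and 2.18 times in WT, while the genotypes overlapped (log2 difference 0.29 ± 0.61, 95% interval -1.25 to 1.82, adjusted p = 0.887). Between arrays of the same number the difference was 0.42 for replicate 1 and 0.15 for replicate 2. Without Smad4-KO replicate 1 it was -0.41 and without WT replicate 2 it was -0.28.

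A replicate 1 signal at least 2 times that of replicate 2 in both genotypes was found in 163 of 13645 genes tested, or 1.19%. All 7 fat cell markers measured were higher on replicate 1 in both genotypes. Adipoq, the adiponectin gene, read 23589 and 5859 in Smad4-KO and 13468 and 5891 in WT. Replicate 1 was thus the higher array in both genotypes, as for Cdkn2c. Pparg, the master transcription factor of fat cells, read 783 and 268 in Smad4-KO and 534 and 246 in WT, again higher on replicate 1. Ucp1, the uncoupling protein of brown fat, read 773 and 69.9 in Smad4-KO and 9417 and 1170 in WT. The ratio of replicate 1 to replicate 2 ran over the 7 markers from 1.38 to 22.9 in Smad4-KO and from 1.92 to 8.05 in WT. Xist, the RNA that coats the inactive X, split the arrays by number too, with 6223 and 135 in Smad4-KO and 15192 and 90.0 in WT. The part of fat tissue or of the sex of the pooled mice in the values of Cdkn2c was not tested.

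**Figure D3:**
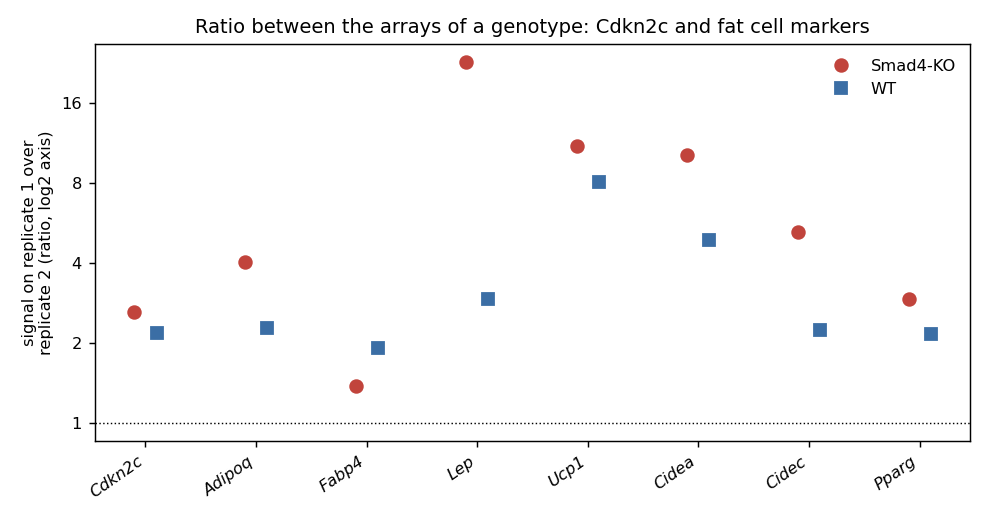
Signal on replicate 1 divided by the signal on replicate 2 (log2 axis), in Smad4-KO (circles) and WT (squares), for Cdkn2c and the 7 fat cell markers measured. All points lie above 1; Cdkn2c stands at 2.63 in Smad4-KO and 2.18 in WT, near Pparg at 2.92 and 2.17.

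Cdkn2d encodes p19 of the INK4 group. Its probe set read 933 and 620 in Smad4-KO and 669 and 640 in WT, so the WT values lay between those of Smad4-KO (0.22 ± 0.34, 95% interval -0.63 to 1.07, adjusted p = 0.84). Without Smad4-KO replicate 1 the difference was -0.079.

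Cdkn2a encodes p16 and, from another reading frame, p19Arf. Its only probe set read 7.98 and 5.96 in Smad4-KO and 40.8 and 39.2 in WT. The WT arrays lie close together and above the Smad4-KO arrays, but all 4 values are under 64 and their mean is below the filter, the 25th percentile of genes at a signal of 50.01, so the gene was not tested and no fold is given. In the fit with no filter it had an adjusted p of 0.0798, where 0 of 18193 genes passed 0.05, 2788 had an unadjusted p under 0.05, and the lowest adjusted p was 0.0725.

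Among the Cip/Kip inhibitors, Cdkn1c, the imprinted gene of p57, had the closest replicates. Its probe set read 589 and 694 in Smad4-KO and 403 and 400 in WT. Both Smad4-KO arrays were above both WT arrays (0.67 ± 0.30, 95% interval -0.071 to 1.42, adjusted p = 0.311), by 0.55 to 0.80 within the pairs. After each array was centred on its median, a step that put the median over all genes at -0.16, the difference of Cdkn1c was 0.52.

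Cdkn1a encodes p21, the inhibitor that p53 induces after DNA damage. Its brightest probe set read 651 and 1897 in Smad4-KO and 1041 and 886 in WT. The Smad4-KO arrays lay on either side of the WT arrays and differed from each other by 2.91 times (0.21 ± 0.55, 95% interval -1.17 to 1.60, adjusted p = 0.91). The dimmer probe set read 567 and 798 in Smad4-KO and 649 and 353 in WT, and overlapped too. Without Smad4-KO replicate 2 the difference of the brightest probe set was -0.56, and without Smad4-KO replicate 1 it was 0.98. On Smad4-KO replicate 2 the summed signal of 8 fast skeletal muscle genes, a list chosen after seeing the data, was 6897, against 1809 on Smad4-KO replicate 1 and 1045 and 585 on the WT arrays; its part in Cdkn1a was not tested.

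Cdkn1b encodes p27, the inhibitor that accumulates in quiescent cells. Its brightest probe set read 2217 and 3536 in Smad4-KO and 3149 and 3506 in WT, and Smad4-KO replicate 1 was the single low array (-0.25 ± 0.36, 95% interval -1.14 to 0.64, adjusted p = 0.822). Without that array the difference was 0.090. The other probe set was under 64 on every array and was not tested.

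**Figure D4:**
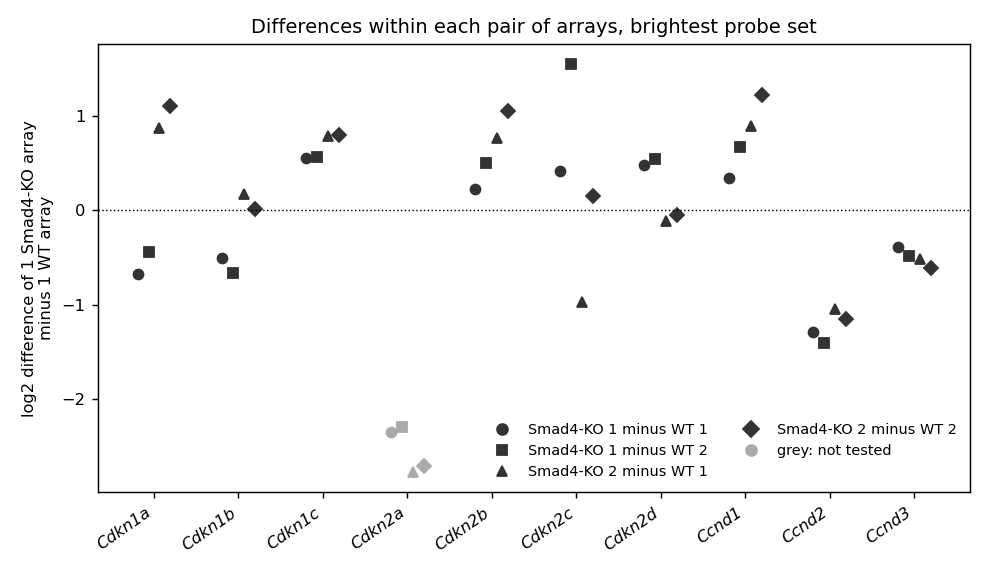
Log2 difference of the brightest probe set within each of the 4 pairs of 1 Smad4-KO and 1 WT array; marker shapes name the pair, and grey marks Cdkn2a, which was not tested. Ccnd2 (-1.41 to -1.04) and Ccnd3 (-0.61 to -0.39) keep their sign in the 4 pairs, as do Ccnd1, Cdkn1c and Cdkn2b above 0. The pairs of Cdkn1a, Cdkn1b, Cdkn2c and Cdkn2d fall on both sides. One sign in the 4 pairs means the same as no overlap, which held for 47.3% of all genes tested.

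The genes around these members were read from 7 lists, to be set against 4.92% of all genes tested called higher and 1.39% called lower. Cdk4 and Cdk6, the kinases that the D-type cyclins activate, had differences of 0.27 ± 0.30 and 0.37 ± 0.35 that did not pass (adjusted p = 0.758 and adjusted p = 0.7). Of the 10 CDKs and activators tested, 1 rose and 0 fell: Cdk1, the kinase of mitosis, read 542 and 694 in Smad4-KO and 201 and 135 in WT, 3.72-fold higher (1.90 ± 0.35, adjusted p = 0.0418). The median of that list was 0.051. Of the 4 cyclins A, B and E tested, 0 were called in limma, with a median of 1.31. All 4 had both Smad4-KO arrays above both WT arrays, against 25.9% of all genes tested. Ccna2, the S-phase cyclin A2, read 819 and 1159 in Smad4-KO and 398 and 398 in WT (1.29 ± 0.33, adjusted p = 0.0913), and Ccnb2, a mitotic cyclin, 271 and 240 in Smad4-KO and 171 and 60.3 in WT (1.33 ± 0.54, adjusted p = 0.27). The difference of Ccnb2 was 2.08 without WT replicate 1 and 0.58 without WT replicate 2.

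Genes that E2F factors switch on, and other genes of replication and division, formed a list with 19 members tested. Of these 19, 2 rose and 0 fell, against 4.92% of all genes called higher and 1.39% called lower. For 15 of the 19 both Smad4-KO arrays were above both WT arrays, against 25.9% of all genes tested, and the median difference was 0.97. Mki67, the Ki-67 antigen of dividing cells, read 1287 and 2131 in Smad4-KO and 499 and 411 in WT, 3.66-fold higher (1.87 ± 0.37, adjusted p = 0.0496). Top2a, the topoisomerase of chromosome segregation, read 865 and 1051 in Smad4-KO and 269 and 296 in WT, 3.37-fold higher (1.75 ± 0.30, adjusted p = 0.0353). The 10 macrophage markers had a median difference of 2.34 on these arrays, and their part in the values of this list was not tested.

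Of the 12 pocket proteins and E2F factors tested, 0 were called (median 0.086). The lowest p values were those of Rbl1, the pocket protein p107, with 686 and 800 in Smad4-KO and 258 and 385 in WT (1.23 ± 0.34, adjusted p = 0.117), and E2f7, a repressor E2F, with 135 and 257 in Smad4-KO and 81.9 and 89.1 in WT (1.13 ± 0.40, adjusted p = 0.209). With the mean of its probe sets Rbl1 differed by 0.68, and without Smad4-KO replicate 2 E2f7 differed by 0.66. E2f8 of the same list was below the filter on genes. Its brightest probe set read 115 and 293 in Smad4-KO and 24.8 and 5.20 in WT, both under 64. This probe set passed the filter of the fit of every probe set, a signal of 38.2, only through its Smad4-KO values. Limma did not call it there (adjusted p = 0.131), and no difference is given because both WT values lie under that filter. Of the 12 genes of protein turnover tested, 0 were called (median -0.15). Fbxo31, an F-box protein that targets cyclin D1 after DNA damage, read 380 and 297 in Smad4-KO and 787 and 816 in WT (-1.25 ± 0.31, adjusted p = 0.0854), a difference of -0.79 with the mean of its probe sets. Cdc20, an activator of the anaphase-promoting complex, read 678 and 1518 in Smad4-KO and 446 and 254 in WT (1.59 ± 0.52, adjusted p = 0.169). Its second probe set gave 0.63, the mean of its probe sets 0.80, and the brightest probe set 1.01 without Smad4-KO replicate 2.

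Of the 27 transcriptional regulators tested, 1 rose and 0 fell (median -0.22), against 4.92% of all genes called higher and 1.39% called lower. The rise was that of Myc, a factor that represses Cdkn1a and Cdkn2b and raises Ccnd2 in cultured cells. It read 487 and 570 in Smad4-KO and 108 and 105 in WT, with close replicates, and was 4.95-fold higher (2.31 ± 0.30, adjusted p = 0.0191). Of 21 p53 target genes tested, 2 rose and 0 fell, and the median was -0.20. Plk2, a kinase of centriole duplication, read 1773 and 1394 in Smad4-KO and 358 and 282 in WT (2.31 ± 0.32, adjusted p = 0.0218). Pmaip1, the cell death protein Noxa, read 262 and 493 in Smad4-KO and 29.0 and 55.8 in WT (3.16 ± 0.49, adjusted p = 0.0272). Its WT values are under 64, and with signals under 64 raised to 64 its difference was 2.49. Cdkn1a, itself a p53 target, overlapped between the genotypes as given above. None of the 6 calls of Cdk1, Mki67, Top2a, Myc, Plk2 and Pmaip1 held without WT replicate 1 or without WT replicate 2. The differences without 1 WT array ran from 1.61 (Cdk1) to 3.63 (Pmaip1), both without WT replicate 2. The calls of Cdk1, Top2a and Mki67 were lost without Smad4-KO replicate 2, and those of Cdk1 and Top2a also without Smad4-KO replicate 1. Such refits leave 1 array in a genotype, so a lost call there does not single out these genes. With no filter, or with a block for the Dap ratio, limma called 0 of all genes, and 2788 and 2658 had an unadjusted p under 0.05. With the mean of all probe sets of a gene the difference was 1.47 for Plk2 and 0.97 for Top2a, and neither passed; Cdk1 (adjusted p = 0.0619) and Mki67 (adjusted p = 0.0719) did not pass there either. Median centring ended the calls of Cdk1, Mki67 and Top2a (adjusted p = 0.0517 to adjusted p = 0.0741), and quantile normalization and cyclic loess those of Cdk1 and Mki67 (adjusted p = 0.0536 to adjusted p = 0.0735). Raising signals under 64 to 64 ended that of Mki67 (adjusted p = 0.0552). In all, limma refits lost the call of Cdk1 in 10 of 15, Mki67 in 10 of 15, Top2a in 8 of 15, Plk2 in 5 of 15, Myc in 4 of 14 and Pmaip1 in 4 of 14. These tallies include the refits in which limma called 0 of all genes, where any call is lost.

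**Figure D5:**
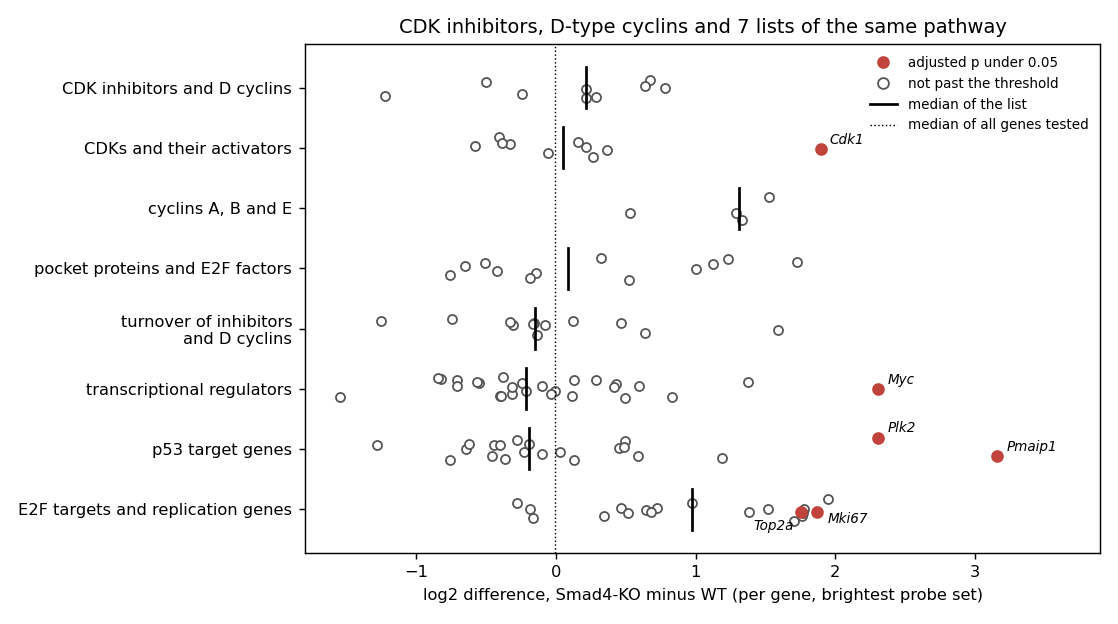
Log2 difference, Smad4-KO minus WT, of each gene tested in the members' list and 7 lists of the same pathway; red points passed an adjusted p of 0.05, black bars are list medians and the dotted line is the median of all genes tested (-0.0056). The members stay between -1.23 and 0.78, and the 6 called genes lie at 1.75 and above.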

How the data were processed

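RNA of pooled aortas was measured on Affymetrix mouse arrays. Each deposited value is the linear intensity of 1 probe set. Affymetrix Expression Console and RMA were used per the submitters' processing notes, with no version given, yet the values have the form of MAS5 signal: no log was taken, 253 to 324 values of each array are below 1, and every array has a mean of 500.002 to 500.003 once 2% is trimmed at each end. The sources used here give no genome build. Each array is scaled by a common factor, so a shift shared by most genes would not be seen. Median signals were 133 and 137 (Smad4-KO) and 111 and 132 (WT).

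Values were taken to log2. Of 45101 probe sets, 34945 had 1 symbol, 932 several, 9160 none, and 64 were controls; only the first were used. The brightest probe set (by mean log2) stood for its gene, and a filter at the 25th percentile of that mean kept 13645 genes. A second fit took each probe set by itself (26209 after the same filter). Both used limma 3.58.1 (R 4.3.3), lmFit and eBayes with genotype as the only term, two-sided, with Benjamini-Hochberg adjustment over all features tested. In the fit of probe sets 0.782% were called, and 0 of the 20 member probe sets tested were. The labels call the arrays of a genotype biological replicates. Over all genes tested, same-numbered arrays did not deviate together (correlation -0.0098), though Xist and the 7 fat cell markers measured were higher on replicate 1 in both genotypes. The procedure was tested on simulated data with independent errors. These held no shared difference between arrays beyond genotype, so the test cannot speak to the labelling, Xist or fat differences. Members, lists and tests were chosen with earlier results of these data known. All members are named, with up to 4 called genes of each pathway list or the 2 of lowest p. The alternatives were other scalings, filters, probe set rules, variance models and blocks, a floor of 64, and leaving out each array. Sequences and gene names came from RefSeq (GRCm38.p6), and tables and figures from Python 3.11.15.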

Additional observations from a re-analysis of the deposited data

How the results depend on the processing

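Over 15 refits (other scalings, filters, probe set rules, floors, variance models, blocks, and each array left out) 0 member genes passed 0.05 in limma, and 0 member probe sets did over 14, which leave out the mean of probe sets; at an adjusted p of 0.10 Ccnd2 passed (log2 difference -1.23). Ccnd1, Ccnd2, Ccnd3, Cdkn1c and Cdkn2b kept their sign in each setting run for them. In these 5 the genotypes did not overlap, as in 47.3% of all genes tested, so leaving out 1 array could not turn the sign. Filters, variance models and blocks left the difference itself unchanged. Cdkn2b is not tested with the filter at the 50th percentile and Cdkn2a is tested only with no filter. The sign turned for Cdkn1b with the mean of probe sets (0.083). Over the settings without 1 array the difference lay between -0.56 and 0.98 for Cdkn1a, -0.58 and 0.090 for Cdkn1b, -0.41 and 0.98 for Cdkn2c, and -0.079 and 0.51 for Cdkn2d. Among single probe sets, the second of Ccnd3 turned with median centring (-0.041) and ran from -0.92 to 1.15 without 1 array, the third of Ccnd3 from -0.31 to 0.69, the fifth of Ccnd2 from -3.49 to 0.043, and the dimmest of Ccnd2 from -0.63 to 0.32. Adipoq ran from -0.60 to 1.40. The replicate block, for array numbers that the labels do not describe as pairs, gave 1321 called genes against 861 without it and changed no member's call. The count of called genes was 518 with the mean of probe sets, 1403 at 0.10, and 0 with no filter (2788 at an unadjusted p under 0.05) and with the labelling block, which pairs arrays by the Dap ratio (2658 at an unadjusted p under 0.05). Without 1 array it was 0 to 808, with 0 without WT replicate 2 (1791 at an unadjusted p under 0.05) and 270 without WT replicate 1. Called probe sets were 205, against 601 with the filter at the 50th percentile, 586 with trend and robust, 956 at 0.10, and 0 with quantile normalization (3645 at an unadjusted p under 0.05), no filter (4090), the floor of 64 (4210) and the labelling block (3634), and 0 to 139 without 1 array. The change in the ratio of Ccnd1 to Ccnd2 stayed between 1.79 and 2.23 without 1 array. The causes of these changes were not tested.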
